A study of Mus musculus with 2 samples.

Results

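Genes of the basement membrane, of the surrounding matrix and of the integrins that bind them were described in sorted mouse adrenal cells profiled by droplet single-cell RNA sequencing. The 32 members were named one by one, with earlier results of these data known. Each was found by its symbol among the 31057 features of both deposited tables. Cyr61, Ctgf and Nov stood there under these older symbols for Ccn1, Ccn2 and Ccn3. By role the members were 6 collagen chains, 7 laminin chains, 3 linker molecules, 9 fibronectin and matricellular genes, 3 matrix modulators and 4 integrin chains. The cells came from adrenal glands of male mice aged 15 weeks, of the genotype written WT, SF1-Cre ; Rosa mTmG. SF1-Cre drives recombination in cells that express SF1 (Nr5a1), a factor of steroid-producing cells, and the mTmG reporter at the Rosa locus switches those cells from a membrane red to a membrane green protein. The study names 26 adrenals and 2 libraries of this 1 group, with no treatment and no second genotype, without saying which adrenals went into which library. The sort took living single cells by a DNA dye, and the labels name no gate on the green protein.

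The basement membrane is a thin sheet of matrix that cells build at their border with other tissue. Laminin trimers (an alpha, a beta and a gamma chain) and a network of collagen IV form its 2 polymers, nidogens and perlecan link them, and integrins on the cell surface bind laminin or collagen. In the adrenal cortex, aldosterone-producing glomerulosa cells lie in rosettes under the capsule and corticosterone-producing fasciculata cells lie in cords along the sinusoids, so cells of both zones border on basement membrane.

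Cells were grouped by the enzymes of the zones, measured as CPM, the count scaled to a common total over the cell's unique molecular identifiers (UMIs, which mark single captured RNA molecules). Cyp11b2, the aldosterone synthase gene, defined Cyp11b2-high cells (at least 200 CPM). Cyp11b1, the steroid 11-beta-hydroxylase gene of the fasciculata, defined Cyp11b1-high cells (at least 1000 CPM) and Cyp11b1-intermediate cells (300 to 1000 CPM). Aldh1a1, a retinal dehydrogenase gene, defined Aldh1a1-high cells (at least 500 CPM), and cortical cells under all these thresholds were called Low-in-both. Aldh1a1-high cells were assigned first, whatever their Cyp11b1 or Cyp11b2 level. They held 1888 and 2504 CPM of Cyp11b1 in the 2 libraries, beside 1952 and 2894 CPM in Cyp11b1-high cells, so both groups were high in Cyp11b1. Library 1 gave 483 Cyp11b2-high, 2926 Low-in-both, 478 Cyp11b1-intermediate, 432 Cyp11b1-high and 28 Aldh1a1-high cells, and library 2 gave 236, 910, 155, 260 and 26. A further 22 and 10 cells were high in both Cyp11b enzymes (Cyp11b2 from 200 and Cyp11b1 from 500 CPM) and were too few to test. Leukocytes (38 and 27 cells, set apart by Ptprc) served as the background for free RNA. The groups rest on RNA levels only, and no position in the gland was measured.

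The files held 5040 and 2288 barcodes, of which 4 were shared between the libraries, and 92905273 and 28023733 UMIs. The 5 groups had median depths of 16862 to 20995 UMIs per cell in library 1 and 14710 to 18928 in library 2, against 8127 and 6936 in leukocytes. By the rule on 4 steroidogenic genes, 4369 of 4414 and 1597 of 1631 cells of at least 5000 UMIs were cortical. These cells were selected on those genes, so their levels of them are no separate check of the label of steroidogenic cells. The 8 endothelial markers summed to 7.38 to 31.1 CPM in the 5 groups, mostly from Kdr and Esam, except in Aldh1a1-high cells of library 2, where neither had a UMI. The 8 mesenchymal and capsule markers summed to 0 to 29.7 CPM, mostly from Rspo3, with Lum and Pdgfrb at 0 in all 5 groups. The 5 glomerulosa markers, of which Cyp11b2 was used for grouping, summed to 5311 and 6292 CPM in Cyp11b2-high, 4429 and 5132 in Low-in-both, 2339 and 2124 in Cyp11b1-high and 812 and 125 in Aldh1a1-high cells. The 4 fasciculata markers, Cyp11b1 among them, summed to 1851 and 1774 CPM in Cyp11b2-high and 1184 and 904 in Low-in-both cells. They reached 3601 and 5173 CPM in Cyp11b1-high and 7643 and 11418 in Aldh1a1-high cells. Single markers of that list went different ways. Abcb1b alone gave 4659 and 8301 CPM in Aldh1a1-high cells. Akr1b7 was at 1650 and 1575 CPM in Cyp11b2-high, 1358 and 1891 in Cyp11b1-high and 717 and 221 in Aldh1a1-high cells. When every cell with a UMI of an endothelial, mesenchymal or mural marker was removed, 16, 6 and 6 members were called in the 3 comparisons below, against 16, 7 and 6 with them.

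Of the 32 members, 30 had a UMI in cortical cells, and 19 passed the low-count filter of the fit. Library and group sums were fitted with edgeR's quasi-likelihood test, with a term for library, and p-values were adjusted over the 12080 genes tested. Across the 5 groups 16 members differed, where 40.0% of all genes tested did. From Cyp11b2-high to Cyp11b1-high cells 5 members rose and 11 fell, against 33.0% of all genes called (15.4% higher and 17.6% lower). Between Cyp11b1-high and Aldh1a1-high cells 2 rose and 5 fell in the latter, against 14.5% of all genes (7.36% higher and 7.16% lower; of the calls over all genes 50.7% were higher, and 63.6% with DESeq2). From Cyp11b2-high to Low-in-both cells 2 rose and 4 fell, against 13.2% of all genes (6.20% higher and 6.99% lower). The tested members had a median log2 difference of -0.52, -0.21 and -0.05 in these 3 comparisons, beside 0.00, -0.07 and 0.02 over all genes. The filter keeps a member that is high in 1 group only, so these counts and medians describe the 19 that passed and are no test of the set. The members were also chosen with earlier results of these data known. Every called member had the same sign of difference in both libraries. Log2 differences given for 1 library alone are not fits. They are differences of log2 CPM with a small count added, which draws them toward 0 at few UMIs.

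**Figure D1:**
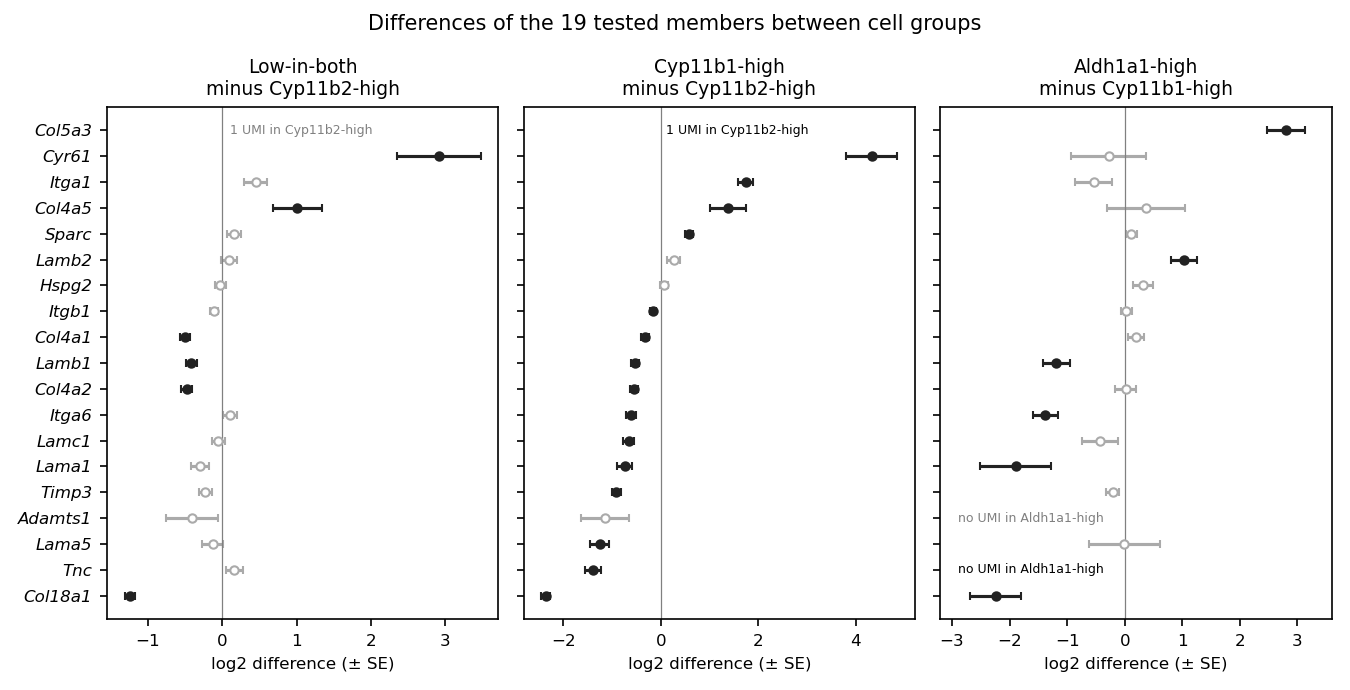
Fitted log2 differences of the 19 tested members in 3 comparisons of cell groups, with standard errors; filled points passed an edgeR adjusted p of 0.05 and open points did not, and a member with at most 1 UMI in a group is written in place of a point. Col18a1 lies lowest of the plotted points in each panel, at -1.24, -2.36 and -2.24.

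Col18a1, the gene of collagen XVIII, a basement membrane proteoglycan whose end fragment is endostatin, fell along the 5 groups from Cyp11b2-high to Aldh1a1-high cells. In library 1 its level was 120 CPM in Cyp11b2-high, 51.9 in Low-in-both, 33.4 in Cyp11b1-intermediate, 26.3 in Cyp11b1-high and 9.10 in Aldh1a1-high cells. In library 2 it was 182, 80.4, 43.9, 35.7 and 2.46 CPM. The order of the 5 groups was the same in both libraries, and leukocytes held no UMI of it. The value of Aldh1a1-high cells rests on 5 UMIs and 1 UMI. Col18a1 was lower in Low-in-both than in Cyp11b2-high cells by a log2 difference of -1.24 ± 0.07 (SE; edgeR adjusted p = 3.00e-09). It was lower in Cyp11b1-high than in Cyp11b2-high cells by -2.36 ± 0.09 (edgeR adjusted p = 1.03e-12). The difference from Cyp11b1-high to Aldh1a1-high cells was -2.24 ± 0.45 (edgeR adjusted p = 0.00183), with -1.56 in library 1 alone and -3.65 in library 2 alone. Without cells holding an endothelial, mesenchymal or mural UMI that difference was -4.50. Col18a1 overlaps Slc19a1 on the other strand, and the strand setting of the counting is not stated.

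RefSeq lists 2 starts for Col18a1, and 250 bases before each are shown because the gene had the lowest fitted value of all plotted members in each comparison; the counts do not tell the starts apart. They were searched on both strands for GGAATG, the core letters bound by TEAD factors, with matches in capitals (build GRCm38.p6, minus strand, written 5′ to 3′ along the gene). The upstream stretch at chr10:77166531-77166780 held none. The one at chr10:77113706-77113955 held 2, with first bases 104 and 54 bases before the start.
Col18a1, outer start: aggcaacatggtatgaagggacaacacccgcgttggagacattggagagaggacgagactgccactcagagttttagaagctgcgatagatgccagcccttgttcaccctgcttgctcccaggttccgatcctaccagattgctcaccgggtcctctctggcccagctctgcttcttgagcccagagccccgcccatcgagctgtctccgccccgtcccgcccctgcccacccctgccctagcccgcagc
Col18a1, inner start: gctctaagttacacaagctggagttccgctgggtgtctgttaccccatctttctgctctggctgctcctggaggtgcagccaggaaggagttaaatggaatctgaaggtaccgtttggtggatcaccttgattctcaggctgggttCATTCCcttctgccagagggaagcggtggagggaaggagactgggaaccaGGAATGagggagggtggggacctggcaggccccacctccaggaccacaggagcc

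Col4a1 and Col4a2 encode the chains of the common collagen IV trimer, and both were highest in Cyp11b2-high cells of library 2. Col4a1 was at 155, 121, 135, 144 and 166 CPM in library 1, in the order of groups used above, and at 272, 183, 189, 209 and 229 CPM in library 2. Col4a2 was at 97.9, 75.2, 75.1, 78.6 and 89.2 CPM in library 1 and at 146, 103, 113, 93.3 and 78.7 CPM in library 2. Low-in-both cells were thus below Cyp11b2-high cells for both chains in each library, and neither chain kept 1 direction over all 5 groups. The differences from Cyp11b2-high to Low-in-both cells were -0.50 ± 0.07 for Col4a1 (edgeR adjusted p = 3.61e-05) and -0.48 ± 0.07 for Col4a2 (edgeR adjusted p = 7.74e-05). From Cyp11b2-high to Cyp11b1-high cells they were -0.33 ± 0.07 (edgeR adjusted p = 0.00208) and -0.56 ± 0.08 (edgeR adjusted p = 2.44e-05). Neither chain was called between Cyp11b1-high and Aldh1a1-high cells.

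These chains lie head to head on chromosome 8 and their annotated genes overlap by 22 bases at the start, at chr8:11312805-11312826. The shared bases are printed for the plus strand, that of Col4a2, from RefSeq build GRCm38.p6, because both chains start there on opposite strands.
Col4a1 and Col4a2 shared start: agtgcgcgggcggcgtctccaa

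Col4a5, an X-linked collagen IV chain, was scarce. It was at 1.93, 3.15, 4.53, 6.01 and 1.82 CPM in library 1 and at 2.77, 7.998, 8.37, 6.89 and 17.2 CPM in library 2. The 2 Aldh1a1-high values rest on 1 and 7 UMIs and lie on opposite sides of the Cyp11b1-high values. Col4a5 was higher in Cyp11b1-high than in Cyp11b2-high cells, by 1.38 ± 0.37 (edgeR adjusted p = 0.00744). Its difference between Low-in-both and Cyp11b2-high cells, 1.01 ± 0.32, was near the threshold (edgeR adjusted p = 0.0463) and did not pass with DESeq2 (adjusted p = 0.148). Its neighbour Col4a6, whose start lies 1309 bases away, had 7 UMIs in all cortical cells and was not tested.

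Col5a3, a chain of the fibrillar collagen V, ran the other way from Col18a1. In library 1 it was at 0.0965 (1 UMI), 0.192, 1.34, 6.27 and 65.5 CPM over the same groups. In library 2 it was at 0 (no UMI), 0.414, 1.67, 12.8 and 54.1 CPM. The order was the same in both libraries, and Aldh1a1-high cells did not overlap with any other group. Leukocytes held no UMI of Col5a3, but their upper limits of 11.5 and 18.4 CPM lie above its level in every group except Aldh1a1-high cells. Over both libraries, Cyp11b1-high cells held 99 UMIs of it and Cyp11b2-high cells 1 UMI, a ratio per total of 126 with a counting interval of 22.1 to 5026 (95%; edgeR adjusted p = 2.80e-07). In library 1 alone that ratio was 65.1 (interval 11.1 to 2623), and in library 2 Cyp11b1-high cells were at least 18.5-fold higher, with Cyp11b2-high cells set to a floor of 3 UMIs. Col5a3 rose further from Cyp11b1-high to Aldh1a1-high cells, by 2.80 ± 0.33 (edgeR adjusted p = 7.95e-06), with 3.30 in library 1 alone and 2.17 in library 2 alone.

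**Figure D2:**
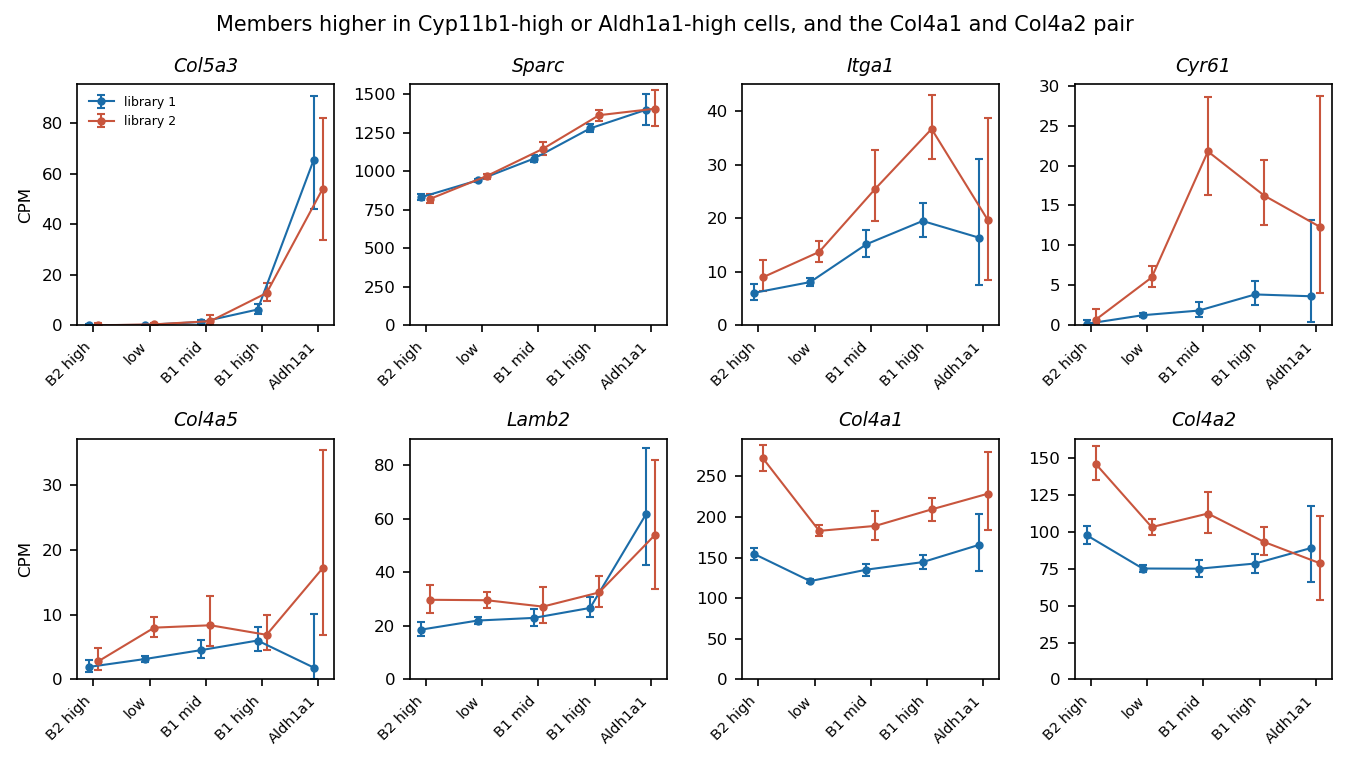
Levels of 8 members (CPM, linear axes from 0) in Cyp11b2-high (B2 high), Low-in-both (low), Cyp11b1-intermediate (B1 mid), Cyp11b1-high (B1 high) and Aldh1a1-high (Aldh1a1) cells, per library, with 95% Poisson intervals for counting error; lines only join the groups. Col5a3 reaches 65.5 and 54.1 CPM in Aldh1a1-high cells from at most 0.414 CPM in the first 2 groups, and Sparc climbs along the groups in both libraries.

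The laminin alpha chains Lama1 and Lama5 were both lower in Cyp11b1-high than in Cyp11b2-high cells. Lama1 was at 16.2, 14.8, 12.6, 13.2 and 1.82 CPM in library 1 and at 39.0, 29.9, 23.9, 18.9 and 7.38 CPM in library 2. Every value of library 2 lay above that of the same group in library 1, and Aldh1a1-high cells (1 and 3 UMIs) were lowest in each. Lama1 differed by -0.74 ± 0.16 from Cyp11b2-high to Cyp11b1-high cells (edgeR adjusted p = 0.00103), and with cells thinned to 5000 UMIs by -0.10, which did not pass (edgeR adjusted p = 0.855). It differed from Cyp11b1-high to Aldh1a1-high cells by -1.89 ± 0.62 (edgeR adjusted p = 0.0471), with -2.78 in library 1 alone and -1.23 in library 2 alone. That call was lost with RLE scaling (edgeR adjusted p = 0.0563) and with DESeq2 (adjusted p = 0.0821). Lama5 was at 18.3, 18.8, 14.5, 8.94 and 3.64 CPM in library 1 and at 20.8, 16.5, 9.21, 7.88 and 14.8 CPM in library 2. Its levels in Cyp11b1-high cells were below those of Cyp11b2-high cells in each library, by -1.26 ± 0.20 (edgeR adjusted p = 8.18e-05), and its Aldh1a1-high values (2 and 6 UMIs) parted between the libraries.

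Of the other laminin chains, Lamb1 and Lamc1 were lower in Cyp11b1-high than in Cyp11b2-high cells, and from there to Aldh1a1-high cells Lamb1 fell and Lamb2 rose. Lamb1, a laminin beta chain, was at 115, 93.3, 92.6, 99.3 and 47.3 CPM in library 1 and at 204, 150, 156, 126 and 49.2 CPM in library 2. Lamc1, the usual gamma chain, was at 33.5, 34.7, 32.7, 21.9 and 25.5 CPM in library 1 and at 67.3, 64.2, 59.4, 46.3 and 19.7 CPM in library 2. Lamb2, the other beta chain among the members, was at 18.6, 22.0, 23.0, 26.7 and 61.9 CPM in library 1 and at 29.7, 29.6, 27.2, 32.5 and 54.1 CPM in library 2. In each library Lamb1 was lowest and Lamb2 highest in Aldh1a1-high cells. In library 2 the counting interval of Lamb2 there was 33.9 to 81.9 CPM (22 UMIs). It overlapped those of Cyp11b1-high (27.2 to 38.5), Cyp11b2-high (24.8 to 35.3) and Cyp11b1-intermediate cells (21.0 to 34.7). Lamb1 fell from Cyp11b1-high to Aldh1a1-high cells by 1.19 ± 0.23 on the log2 scale (edgeR adjusted p = 0.00128). Lamb2 rose there by 1.03 ± 0.23 (edgeR adjusted p = 0.00468). Lamc1 did not pass there (-0.43 ± 0.31, edgeR adjusted p = 0.413), and its sign differed between the libraries. From Cyp11b2-high to Cyp11b1-high cells Lamb1 differed by -0.52 ± 0.08 (edgeR adjusted p = 7.21e-05) and Lamc1 by -0.66 ± 0.11 (edgeR adjusted p = 0.000129), while Lamb2 had 0.26 ± 0.13 and did not pass (edgeR adjusted p = 0.125). Lamb1 was already lower in Low-in-both than in Cyp11b2-high cells (-0.42 ± 0.07, edgeR adjusted p = 0.000585). Lama2 and Lama4, with 55 and 6 UMIs in all cortical cells, were not tested.

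Of the linkers, only Hspg2, the perlecan gene, had enough UMIs to test. It was at 66.9, 70.7, 73.2, 78.4 and 80.1 CPM in library 1 and at 78.2, 74.7, 82.0, 81.2 and 121 CPM in library 2. It passed the test in none of the 3 comparisons, with 0.06 ± 0.09 between Cyp11b1-high and Cyp11b2-high cells (edgeR adjusted p = 0.621). The nidogen genes Nid1 and Nid2 had 2 and 8 UMIs in all cortical cells. At this depth no difference of theirs could be seen.

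**Figure D3:**
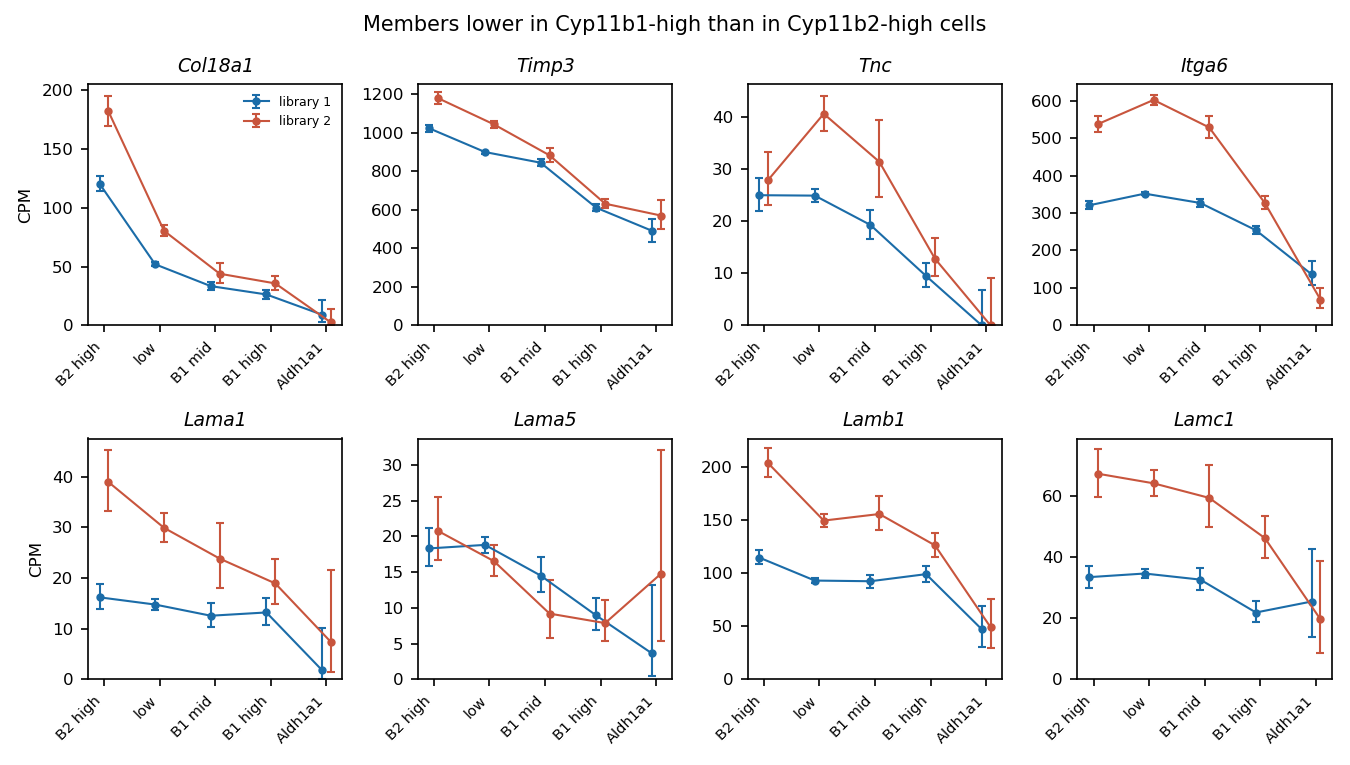
Levels of 8 members (CPM, linear axes from 0) in the 5 cell groups, labelled as in the plot of rising members, per library, with 95% Poisson intervals for counting error; lines only join the groups. Col18a1 drops from 120 and 182 CPM in Cyp11b2-high cells to 26.3 and 35.7 CPM in Cyp11b1-high cells, and Itga6 in library 2 drops from 327 to 68.9 CPM in the last step.

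Sparc, a secreted collagen-binding glycoprotein, was at 833, 942, 1083, 1279 and 1400 CPM in library 1. In library 2 it was at 822, 969, 1146, 1364 and 1407 CPM. The libraries lay close together in each group, the order of groups was the same in both, and leukocytes held no Sparc UMI. The difference from Cyp11b2-high to Cyp11b1-high cells was 0.58 ± 0.09 (edgeR adjusted p = 4.95e-05). No difference was called from Cyp11b1-high to Aldh1a1-high cells.

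Tnc, the gene of tenascin-C, a matricellular protein that modulates adhesion, was low, and lower in Cyp11b1-high than in Cyp11b2-high cells. It was at 24.98, 24.9, 19.3, 9.48 and 0 CPM in library 1 and at 27.9, 40.6, 31.4, 12.8 and 0 CPM in library 2. Cyp11b2-high, Low-in-both and Cyp11b1-intermediate cells lay above Cyp11b1-high cells in each library, and neither library had a Tnc UMI in Aldh1a1-high cells. Tnc differed from Cyp11b2-high to Cyp11b1-high cells by -1.39 ± 0.17 (edgeR adjusted p = 3.50e-06). Against a floor of 3 UMIs summed over both libraries of Aldh1a1-high cells, Tnc was at least 3.39-fold lower there than in Cyp11b1-high cells (edgeR adjusted p = 0.00892). Within each library, with a floor of 3 UMIs per library, it was at least 1.74-fold and at least 1.73-fold lower.

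Cyr61 (Ccn1), an immediate-early matricellular gene and a well-known target of YAP and TEAD factors, differed by group and by library. In library 1 it was at 0.193 (2 UMIs), 1.27, 1.85, 3.87 and 3.64 CPM. In library 2 it was at 0.692 (3 UMIs), 5.998, 21.8, 16.2 and 12.3 CPM. Cyp11b2-high cells were lowest in each library, and library 2 was above library 1 in each group, by 4.72 times in Low-in-both, 11.7 times in Cyp11b1-intermediate and 4.20 times in Cyp11b1-high cells. From Cyp11b2-high to Cyp11b1-high cells Cyr61 rose by 4.33 ± 0.52 (edgeR adjusted p = 2.83e-06). In libraries 1 and 2 alone the values, drawn toward 0 by the added count, were 3.38 and 4.13. From Cyp11b2-high to Low-in-both cells Cyr61 rose by 2.91 ± 0.56 (edgeR adjusted p = 0.00139), with 1.97 and 2.74 in the libraries alone. Ratios of the raw counts from Cyp11b2-high to Cyp11b1-high cells were 20.1 (interval 5.08 to 174) in library 1 and 23.5 (7.69 to 117) in library 2. To Low-in-both cells they were 6.59 (1.76 to 55.5) and 8.67 (2.87 to 42.9).

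Some genes that respond early to dissociation and other stress, Fos and Fosb among them, were also higher in library 2. Fos was 4.13 to 8.67 times and Fosb 4.34 to 10.0 times higher in library 2 over the 4 groups with more than 3 UMIs in each library. Atf3 had the ratio 26.6 in Cyp11b1-high cells (7 and 101 UMIs), but 2.19 in Cyp11b1-intermediate and 0.817 in Low-in-both cells. Others of the 12 listed were not, with ratios of 0.853 to 1.24 for Klf2 and 0.906 to 1.14 for Ier3 over the 5 groups. The 12 early-response genes summed to 427 to 1007 CPM in library 1 and 786 to 1127 CPM in library 2. Between Cyp11b2-high and Cyp11b1-high cells 5 of the 12 rose and 3 fell, where 33.0% of all genes tested were called. Jun (1.18 ± 0.09, edgeR adjusted p = 9.61e-09) and Ier3 (1.09 ± 0.15, edgeR adjusted p = 1.11e-05) were among those that rose. Klf2 (-1.81 ± 0.11, edgeR adjusted p = 6.02e-10) and Nr4a1 (-1.65 ± 0.22, edgeR adjusted p = 7.51e-06) were among those that fell. From Cyp11b1-high to Aldh1a1-high cells Jun rose by 0.99 ± 0.11 (edgeR adjusted p = 5.51e-06), while Junb (-0.74 ± 0.23, edgeR adjusted p = 0.0336) and Dusp1 (-2.71 ± 0.67, edgeR adjusted p = 0.00933; -3.84 in library 1 alone and -2.02 in library 2 alone) fell. The part of this response in the Cyr61 differences was not tested.

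The 250 bases upstream of Cyr61 are shown because they hold 1 match to the TEAD letters, in capitals as the reverse complement, with its first base 103 bases before the start (chr3:145649986-145650235, minus strand, RefSeq build GRCm38.p6).
Cyr61 upstream: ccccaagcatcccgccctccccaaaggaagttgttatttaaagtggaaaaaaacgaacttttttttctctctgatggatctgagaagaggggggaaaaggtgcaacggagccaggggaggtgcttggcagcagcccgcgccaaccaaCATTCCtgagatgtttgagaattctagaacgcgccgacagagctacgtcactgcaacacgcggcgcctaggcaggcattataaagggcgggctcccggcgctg

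Promoter windows were available for 21 members, 23 windows in all. GGAATG on either strand was found in 5 of these windows (Col18a1, Col4a6, Cyr61, Itgb1 and Nid1), beside 14.7% of all 32851 windows of the same length. TGACTCA, the letters bound by AP-1, was found in 0 of 23, beside 5.20% of all windows. The matches describe letters only.

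The remaining genes of this class were near 0 in cortical cells. Fn1, the fibronectin gene, had 8 UMIs in all cortical cells, with at most 0.461 CPM in any group, although leukocytes held 444 and 305 CPM. Sparcl1, a relative of Sparc, had 67 UMIs, and Thbs1, a thrombospondin gene, 29. Ctgf (Ccn2) had 1 UMI, and Thbs2 and Nov (Ccn3) had none. None of these 6 was tested.

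Timp3, a matrix-bound inhibitor of metalloproteinases, fell along the groups from a high level. It was at 1023, 900, 845, 611 and 492 CPM in library 1 and at 1179, 1044, 883, 632 and 571 CPM in library 2, against 6.26 and 10.0 CPM in leukocytes. The order of groups was the same in both libraries. Timp3 differed from Cyp11b2-high to Cyp11b1-high cells by -0.91 ± 0.09 (edgeR adjusted p = 2.23e-07), and the other 2 comparisons did not pass. Timp3 overlaps Syn3 on the other strand. Adamts1, a secreted protease gene, was at 0 to 3.45 CPM, with no UMI in Aldh1a1-high cells, and was called in none of the 3 comparisons. Mgp, an inhibitor of matrix calcification, had 9 UMIs in all cortical cells.

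Itga6, the alpha chain of a laminin receptor, was lowest in Cyp11b1-high and Aldh1a1-high cells. It was at 321, 352, 327, 254 and 137 CPM in library 1 and at 537, 602, 528, 327 and 68.9 CPM in library 2. Leukocytes were at 40.7 and 15.0 CPM. Aldh1a1-high cells were the lowest cortical group in each library, and the libraries lay in the opposite order there from the other 4 groups. Itga6 differed from Cyp11b2-high to Cyp11b1-high cells by -0.61 ± 0.10 (edgeR adjusted p = 7.91e-05), a call that DESeq2 did not make (adjusted p = 0.226). The step from Cyp11b1-high to Aldh1a1-high cells was -1.38 ± 0.22 (edgeR adjusted p = 0.000225), with -2.14 in library 2 alone.

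Itga1, the alpha chain of a collagen receptor, rose from Cyp11b2-high to Cyp11b1-high cells. It was at 6.08, 8.09, 15.1, 19.5 and 16.4 CPM in library 1 and at 8.99, 13.7, 25.5, 36.7 and 19.7 CPM in library 2. Cyp11b1-high cells were the highest group and Cyp11b2-high cells the lowest in each library, with a difference of 1.74 ± 0.16 (edgeR adjusted p = 7.72e-08). Between Cyp11b1-high and Aldh1a1-high cells the difference of -0.54 ± 0.32 did not pass (edgeR adjusted p = 0.308). Itga1 overlaps Pelo on the same strand, so reads of either gene could be assigned to the other. In leukocytes Itga1 had 68.8 CPM in library 1 and no UMI in library 2.

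Itgb1, the beta chain that pairs with both, was nearly level. It was at 259, 240, 247, 254 and 273 CPM in library 1 and at 350, 346, 367, 323 and 298 CPM in library 2, with 285 and 255 CPM in leukocytes. Its difference between Cyp11b1-high and Cyp11b2-high cells was -0.16 ± 0.06 (edgeR adjusted p = 0.0412). That call was lost under 6 alternatives beside the missing library term: no low-count filter, doublets kept, at most 15% mitochondrial UMIs, thinned cells, and group thresholds halved or doubled (edgeR adjusted p from 0.0554 to 0.261). Itga2, the other collagen-receptor chain, had 22 UMIs in all cortical cells and was not tested, with 25.04 and 50.0 CPM in leukocytes.

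Along Cyp11b2-high, Low-in-both, Cyp11b1-intermediate, Cyp11b1-high and Aldh1a1-high cells, 2 of the 19 tested members fell at each step in both libraries (Col18a1 and Timp3), and 2 rose at each step in both (Col5a3 and Sparc). How many of all genes tested did so was not counted, so these counts say nothing of the members as a set. The groups also differed in mitochondrial share, with medians of 7.27% and 7.25% in Cyp11b2-high cells and 4.02% to 7.17% in the other 4 groups. With at most 15% mitochondrial UMIs allowed, 16, 15, 7 and 5 members were called across groups and in the 3 comparisons. The library term carried many of the calls: without it 8 members differed across groups, and 5, 4 and 0 were called in the 3 comparisons (11, 6 and 2 at an unadjusted p under 0.05). Thinning every cell to 5000 UMIs, which leaves fewer counts, ended calls in all 3 comparisons. From Cyp11b1-high to Aldh1a1-high cells Col5a3 and Itga6 were still called, while Col18a1 (-2.06), Lama1 (-1.33), Lamb1 (-0.78), Lamb2 (0.87) and Tnc (still without a UMI in Aldh1a1-high cells) were not. From Cyp11b2-high to Cyp11b1-high cells Col4a1 (-0.26), Col4a5 (1.34), Itgb1 (-0.15) and Lama1 (-0.10) were lost, and to Low-in-both cells Col4a5 (1.48).

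Levels differed between the libraries for many members. In library 2, 9 of the 19 tested members had a higher CPM than in library 1 in all 5 groups, as had 29.8% of all genes tested, and no member was lower in all 5. Sparc, Timp3 and Hspg2 lay closest between libraries among the members, beside Lama5, whose ratios fell on both sides of 1. The libraries also differed in Fos and Fosb, as given above, and in depth.

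**Figure D4:**
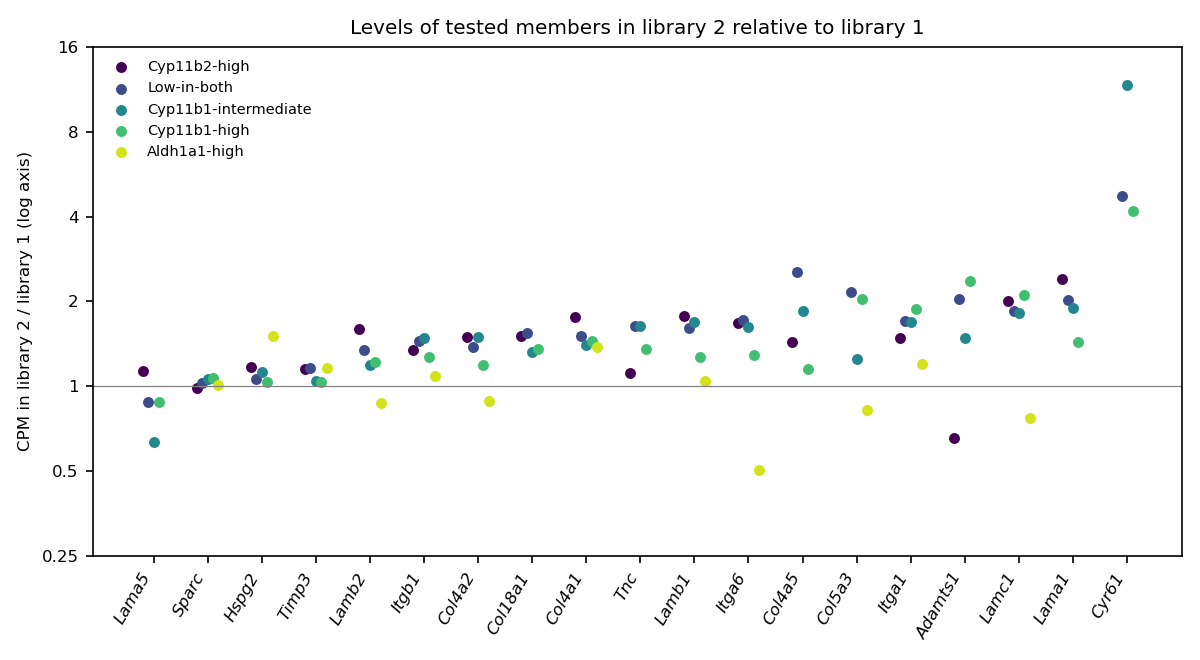
Ratio of CPM in library 2 to library 1 (log axis) for the tested members in each cell group, members ordered by their median ratio; groups with 3 or fewer UMIs in a library are left out. Most points lie above 1, and Cyr61 lies highest, with 4.20 to 11.7. Of all genes tested, 48.75% lay above 1 in Aldh1a1-high cells and 66.4% to 73.0% in each of the other groups.

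Shares of cells with a UMI were compared after each cell was thinned to 5000 UMIs, which left out 275 and 339 shallower cells, among them 24 and 40 Cyp11b2-high, 107 and 132 Low-in-both, 24 and 28 Cyp11b1-intermediate, 64 and 79 Cyp11b1-high and 7 and 4 Aldh1a1-high cells. At this depth 13 members were seen in at least 10% of the cells of some group in both libraries. Col18a1 was seen in 44.1% and 50.8% of Cyp11b2-high cells, in 12.5% and 12.3% of Cyp11b1-high cells and in no leukocyte. Unthinned, those shares were 79.5% and 83.9%, then 29.2% and 34.2%. Itga6 was seen in 75.8% and 88.1% of Cyp11b2-high cells and in 32.1% and 30.8% of Aldh1a1-high cells, against 13.2% and 3.70% of leukocytes. Unthinned, those shares were 96.7% and 99.2%, then 71.4% and 57.7%, and in leukocytes 18.4% and 7.41%.

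Sparc was in nearly every cortical cell and Col5a3 in few. Sparc was seen in at least 97.3% of thinned cells in each of the 5 groups and in no leukocyte. Col5a3 was seen in 32.1% of Aldh1a1-high cells of library 1 (15.9% to 52.4% by the exact interval) and in 26.9% of those of library 2 (11.6% to 47.8%), against 2.31% and 5.00% of Cyp11b1-high cells and none of the Cyp11b2-high cells or leukocytes. Unthinned, the Aldh1a1-high shares were 53.6% and 46.2%. Tnc, in 11.4% and 11.4% of Cyp11b2-high cells, was in 3.94% and 6.15% of Cyp11b1-high cells, with unthinned shares of 28.4% and 27.5%, then 11.3% and 14.2%. Itgb1 was in 67.9% to 79.4% of cells of the 5 groups and in 65.8% and 63.0% of leukocytes, so its share was alike in all of them.

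**Figure D5:**
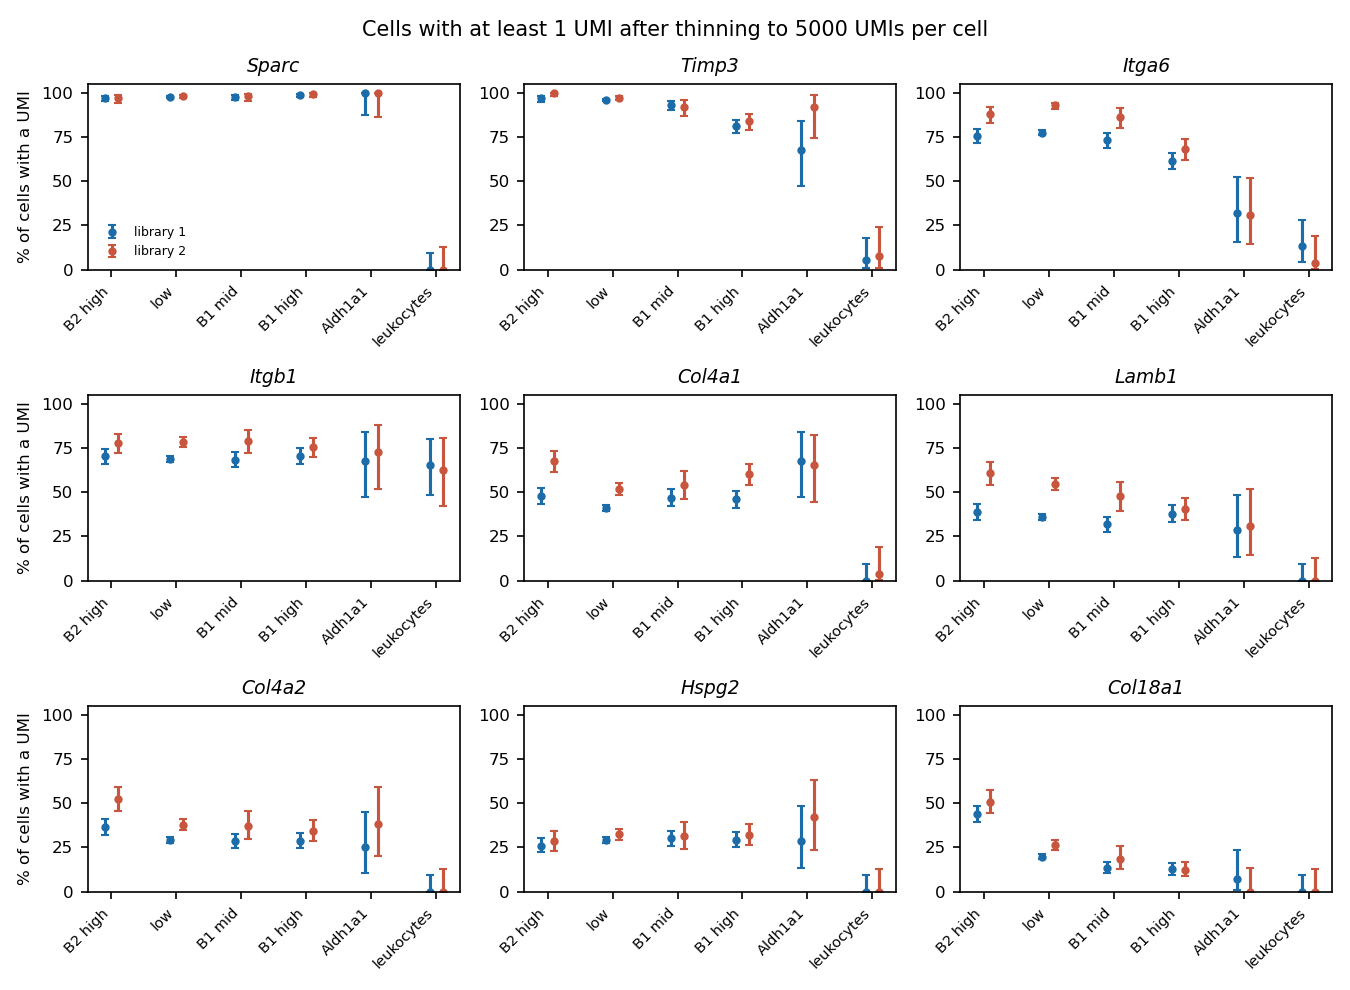
Share of cells with at least 1 UMI of 9 members after thinning to 5000 UMIs per cell, in the 5 cell groups (labelled as in the plots of levels) and in leukocytes, per library, with exact 95% intervals for counting error. Itgb1 is alike in all groups and leukocytes, while Col18a1 falls from 44.1% and 50.8% to 12.5% and 12.3% between Cyp11b2-high and Cyp11b1-high cells.

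Cells high in both Cyp11b enzymes stood nearest to Cyp11b2-high cells for Col18a1 and Timp3, with 22 and 10 cells and no test. Col18a1 was at 104 and 144 CPM there, and Timp3 at 978 and 1244 CPM. Itga6, at 319 and 541 CPM, was near both Cyp11b2-high (321 and 537 CPM) and Cyp11b1-intermediate cells (327 and 528 CPM). Sparc was at 1034 and 915 CPM, beside 833 and 822 CPM in Cyp11b2-high and 1083 and 1146 CPM in Cyp11b1-intermediate cells. Col5a3 had 1 UMI in library 1 and none in library 2.

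Other matrix genes, from lists of the same pathway, moved in both directions as the members did. Beside the counts of these lists, 33.0% of all genes tested were called from Cyp11b2-high to Cyp11b1-high cells. From Cyp11b1-high to Aldh1a1-high cells 14.5% were. Of 20 other basement membrane and matrix genes, 10 passed the filter, and from Cyp11b2-high to Cyp11b1-high cells 6 rose and 3 fell. The median log2 difference of those 10 was 0.51. Col6a1, a chain of collagen VI, was at 23.8 and 22.4 CPM in Cyp11b2-high and 102 and 185 CPM in Cyp11b1-high cells, a rise of 2.39 ± 0.14 (edgeR adjusted p = 1.94e-10). Fbln1, the fibulin-1 gene, was at 47.0 and 68.0 CPM, then 10.3 and 7.63 CPM, a difference of -2.64 ± 0.17 (edgeR adjusted p = 7.48e-10). Tinagl1, a basement membrane protein gene, rose by 0.59 ± 0.09 (edgeR adjusted p = 3.08e-05), and Spock2, a relative of Sparc, differed by -0.90 ± 0.12 (edgeR adjusted p = 5.95e-06). From Cyp11b1-high to Aldh1a1-high cells 2 rose and 2 fell. Col6a1 rose again there, to 177 and 275 CPM (0.72 ± 0.18, edgeR adjusted p = 0.00967), and Smoc1, a matricellular relative of Sparc, rose by 0.98 ± 0.18 (edgeR adjusted p = 0.000699). Tinagl1 turned there, with -0.81 ± 0.20 (edgeR adjusted p = 0.00970). Spock2 differed by -1.98 ± 0.46 (edgeR adjusted p = 0.00613), from 7 UMIs in Aldh1a1-high cells, all of library 1.

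Of 30 receptor and adhesion genes, 23 passed the filter, 6 rose and 5 fell from Cyp11b2-high to Cyp11b1-high cells, and 5 rose and 2 fell from there to Aldh1a1-high cells. Itga9, an integrin chain that binds tenascin-C among other ligands, was at 15.8 and 20.8 CPM in Cyp11b2-high, 55.5 and 96.5 CPM in Cyp11b1-high and 218 and 406 CPM in Aldh1a1-high cells. It rose by 1.88 ± 0.12 (edgeR adjusted p = 6.10e-10) and then by 2.07 ± 0.13 (edgeR adjusted p = 1.84e-09), while Tnc itself went down over the same groups. Itgb5, a beta chain of vitronectin receptors, was at 86.0 and 85.5 CPM in Cyp11b2-high and 154 and 179 CPM in Cyp11b1-high cells, a rise of 0.83 ± 0.07 (edgeR adjusted p = 4.02e-08). Gpc4, a glypican gene, differed by -0.44 ± 0.10 (edgeR adjusted p = 0.00214) and then by -1.13 ± 0.29 (edgeR adjusted p = 0.0135), the second with -0.52 in library 1 alone and -2.09 in library 2 alone. Bcam, a laminin receptor, differed by -0.33 ± 0.11 in the first comparison (edgeR adjusted p = 0.0268). From Cyp11b1-high to Aldh1a1-high cells Sdc3, a syndecan gene, rose by 0.79 ± 0.19 (edgeR adjusted p = 0.00712), and Tln1, whose product talin links integrins to actin, differed by -0.33 ± 0.10 (edgeR adjusted p = 0.0321).

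Of 20 genes of matrix synthesis and turnover, 16 passed the filter, and 5 rose and 4 fell from Cyp11b2-high to Cyp11b1-high cells. Timp2, a metalloproteinase inhibitor like Timp3, was at 7.72 and 8.30 CPM in Cyp11b2-high, 52.9 and 47.3 CPM in Cyp11b1-high and 186 and 305 CPM in Aldh1a1-high cells. It rose by 2.57 ± 0.18 (edgeR adjusted p = 3.16e-09) and by 2.25 ± 0.18 (edgeR adjusted p = 6.97e-08), the opposite direction from Timp3. Adamts5, a protease of proteoglycans, differed by -1.10 ± 0.16 (edgeR adjusted p = 3.21e-05), and Mmp14, a membrane-bound metalloproteinase, by -0.38 ± 0.11 (edgeR adjusted p = 0.0134). P4hb, a subunit of the enzyme that hydroxylates collagen prolines, rose by 0.34 ± 0.06 (edgeR adjusted p = 0.000307). From Cyp11b1-high to Aldh1a1-high cells 1 of the 16 rose and 1 fell, Timp2 and Plod2 (-0.55 ± 0.12, edgeR adjusted p = 0.00295), a collagen lysine hydroxylase. Of 12 YAP and TEAD pathway genes, 10 passed the filter, and 3 rose and 2 fell in the first comparison. Amotl2, which binds YAP, rose from 11.4 and 17.8 CPM to 43.1 and 52.9 CPM (1.70 ± 0.14, edgeR adjusted p = 1.73e-08), and Lats2, a kinase that acts on YAP, rose by 0.63 ± 0.14 (edgeR adjusted p = 0.00230). Yap1 itself differed by -0.41 ± 0.11 (edgeR adjusted p = 0.00662), and Vgll4, a partner of TEAD factors, by -0.46 ± 0.09 (edgeR adjusted p = 0.000756). From Cyp11b1-high to Aldh1a1-high cells 0 of those 10 were called by edgeR and 0 by DESeq2, with 1 at an unadjusted p under 0.05. From Cyp11b2-high to Low-in-both cells 3 rose and 1 fell among the other matrix genes, and 3 and 2 among receptors. The counts were 2 and 1 among synthesis and turnover genes, 2 and 0 in the YAP list and 4 and 3 in the early-response list. Over all genes tested 13.2% were called there by edgeR. DESeq2 called 1, 2, 1, 0 and 4 genes of these lists, in the same order. Over all genes it made 820 calls there, against 1593 by edgeR.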

How the data were processed

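The authors deposited matrices of UMI counts (genes by barcodes), made with Cell Ranger on mm10 per the submitters' processing notes, and the version is 3.1.0 per the file headers. How cells were called and whether strand was used are not given in the sources used here. The members and lists were chosen with earlier results of these data known. Filters of 1000 UMIs, 500 genes and a mitochondrial share of 30% took out 148 and 276 barcodes. Doublets were scored with scrublet (scanpy 1.11.5) and the top 0.8% per 1000 barcodes removed, 203 and 42 cells. Doublets of like cells and free RNA were not removed. Cells with at least 5000 UMIs were grouped, cortical cells being those with Star, Cyp11a1, Hsd3b1 and Cyp21a1 summing to at least 2000 CPM and under 2 Ptprc UMIs. The enzyme thresholds are those of the report, with 500 CPM of Cyp11b1 beside Cyp11b2 for cells high in both.

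Counts were summed per group and library over groups of at least 20 cells in each library, which gave 10 sums of 5 groups. The planned fit of 6 groups thus became one of 5. The quasi-likelihood test of edgeR 4.0.16 (limma 3.58.1 on R 4.3.3; group and library terms, TMM, filterByExpr) was fitted to 12080 genes, with Benjamini-Hochberg adjustment and a threshold of 0.05. It had 4 residual degrees of freedom, 14.4 prior ones and a biological coefficient of variation of 0.0484. Sums of 1 library share its cells' handling, and nothing says that the libraries came from separate animals, so p-values measure the spread between these sums, which may be technical. The grouping genes and Aldh1a7 were left out of the tests. Every member was accounted for. Other genes were named by a rule, up to 2 per list and direction by the largest called difference with at least 20 CPM on the higher side. On simulated counts of 12080 genes for Cyp11b1-high minus Cyp11b2-high, 90 of 103 genes changed 2-fold and 93 of 97 changed 4-fold were called, with 15 false calls. The simulated counts had 1 mean per gene, 1 spread for all genes, no library effect and only these changes. In the data 33.0% of genes were called in that comparison, so the simulated figures hold for a simpler setting. Intervals (95%, Poisson for CPM, Clopper-Pearson for shares) and the floor of 3 UMIs cover counting error only. Gene positions came from GENCODE vM21, in which all 32 members matched. Promoter windows came from RefSeq (GRCm38.p6). Alternatives covered scaling, DESeq2 1.42.0, filters, thresholds, depth and the library term.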

Additional observations from a re-analysis of the deposited data

Results flagged for a closer look

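Leukocytes took no part in the comparisons, and 2 members that were near 0 in cortical cells had counts there. Fn1 was at 444 CPM in leukocytes of library 1 (142 UMIs) and 305 CPM in library 2 (61 UMIs), while the highest cortical group reached 0.0965 and 0.461 CPM. Itga2 was at 25.04 CPM (8 UMIs) and 50.0 CPM (10 UMIs) in leukocytes, while the highest cortical group reached 0.386 and 4.92 CPM. The leukocyte sums hold 38 and 27 cells, and few of these carry the counts: 26.3% and 14.8% of them had a Fn1 UMI, and 5.26% and 11.1% an Itga2 UMI.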

How the results depend on the processing

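The sums of different groups in 1 library share its handling, so the library term acts as the replicate block, and the libraries pair the sums by design. Without the block 8 members differed across groups, and 5, 4 and 0 members were called from Cyp11b2-high to Cyp11b1-high, from Cyp11b1-high to Aldh1a1-high and from Cyp11b2-high to Low-in-both cells, so 20 of the 29 called member differences were lost. With cells thinned to 5000 UMIs, 2 members were called from Cyp11b1-high to Aldh1a1-high cells. The other counts of members, under the other alternatives run, were within 1.5 times the reported ones. Of the 29 called member differences, 28 passed with RLE scaling, 26 with DESeq2, 28 without the low-count filter, 27 with doublets kept, 27 with at most 15% mitochondrial UMIs, 28 with cells from 1000 UMIs, 28 with group thresholds halved, 25 with them doubled, 28 without cells holding other cell types' markers and 19 with thinned cells. All 29 had the same sign in each library alone. With 1 library left out there is no test, since 1 sum per group has no spread. In Aldh1a1-high cells, with 28 and 26 cells, 1 UMI is a large step, and members at few UMIs there were not resolved at this depth. Of the differences named from the other lists, 19 passed and 14 did not with thinned cells.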
